A study of Mus musculus with 6 samples.

Results

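Translation initiation factors are the proteins that bring a ribosome to the start codon of an mRNA, and 44 of their genes were measured here among 55401 gene rows. They were the mouse protein-coding genes whose symbols begin with Eif1, Eif2b, Eif2s, Eif3, Eif4 or Eif5, without the Eif5a genes, and with at least 10 counts in 3 libraries. The symbols alone gave 46 genes, and 2 did not meet the count rule. RNA came from F4/80+ cells, the surface marker used to isolate macrophages, taken from mouse tumours 14 days after injection of Hepa 1-6 cells, a mouse hepatoma line, into the right lobe of the liver. In 3 control libraries the injected cells were controls and the labels give the genotype as WT Control. In 3 Sms-OE libraries the injected cells overexpressed Sms, the gene of spermine synthase, from a lentivirus. The gene was thus overexpressed in the injected line, while the sequenced cells were the sorted host cells around it. The labels give no mouse strain, sex or age, do not say whether the overexpressing line was 1 clone, and do not tie libraries to individual mice. The p-values therefore reflect only how far libraries of a group differ, part of which may be technical.

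As background, initiation begins when eIF2, carrying the initiator tRNA and GTP, joins the small ribosomal subunit together with eIF1, eIF1A, eIF3 and eIF5. The complex is recruited to the mRNA cap by eIF4F, which is made of the cap-binding protein eIF4E, the scaffold eIF4G and the RNA helicase eIF4A, and it scans to an AUG. There eIF5 stimulates GTP hydrolysis by eIF2, eIF5B joins the large subunit, and eIF2B recharges eIF2 with GTP. Phosphorylation of eIF2 turns it into an inhibitor of eIF2B, which lowers general initiation and favours a few mRNAs such as that of Atf4. In macrophages, control of eIF4E and eIF2 is known to shape the output of cytokines and stress proteins.

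Most initiation factor genes had lower fitted values in Sms-OE libraries, and a few went the other way. Of the 44, all entered the test, 15 fell and 2 rose at an adjusted p under 0.05 in edgeR's quasi-likelihood test, and 27 did not pass. Over all 18277 genes tested, 14.3% fell and 12.5% rose. The genes that rose were Eif5, by far the largest change of the set, and Eif4g3. Those that fell were 8 of 14 eIF3 subunit genes, 2 of 3 tested eIF2 genes, 2 of 5 eIF2B genes, and Eif5b, Eif4e and Eif1a. The fitted log2 fold change (Sms-OE minus control) was below 0 in 36 of the 44 and above 0 in 8, against 9143 and 9134 of all genes. Its median was -0.26 for the initiation factors and -0.00060 for all genes. The CPM (counts per 1000000, on library sizes scaled by TMM factors) of the groups did not overlap in 23 members that were lower and 3 that were higher, where 23.3% and 20.8% of all genes did so. In RNA from a sorted population, fewer cells of a type and less RNA per cell cannot be told apart.

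**Figure D1:**
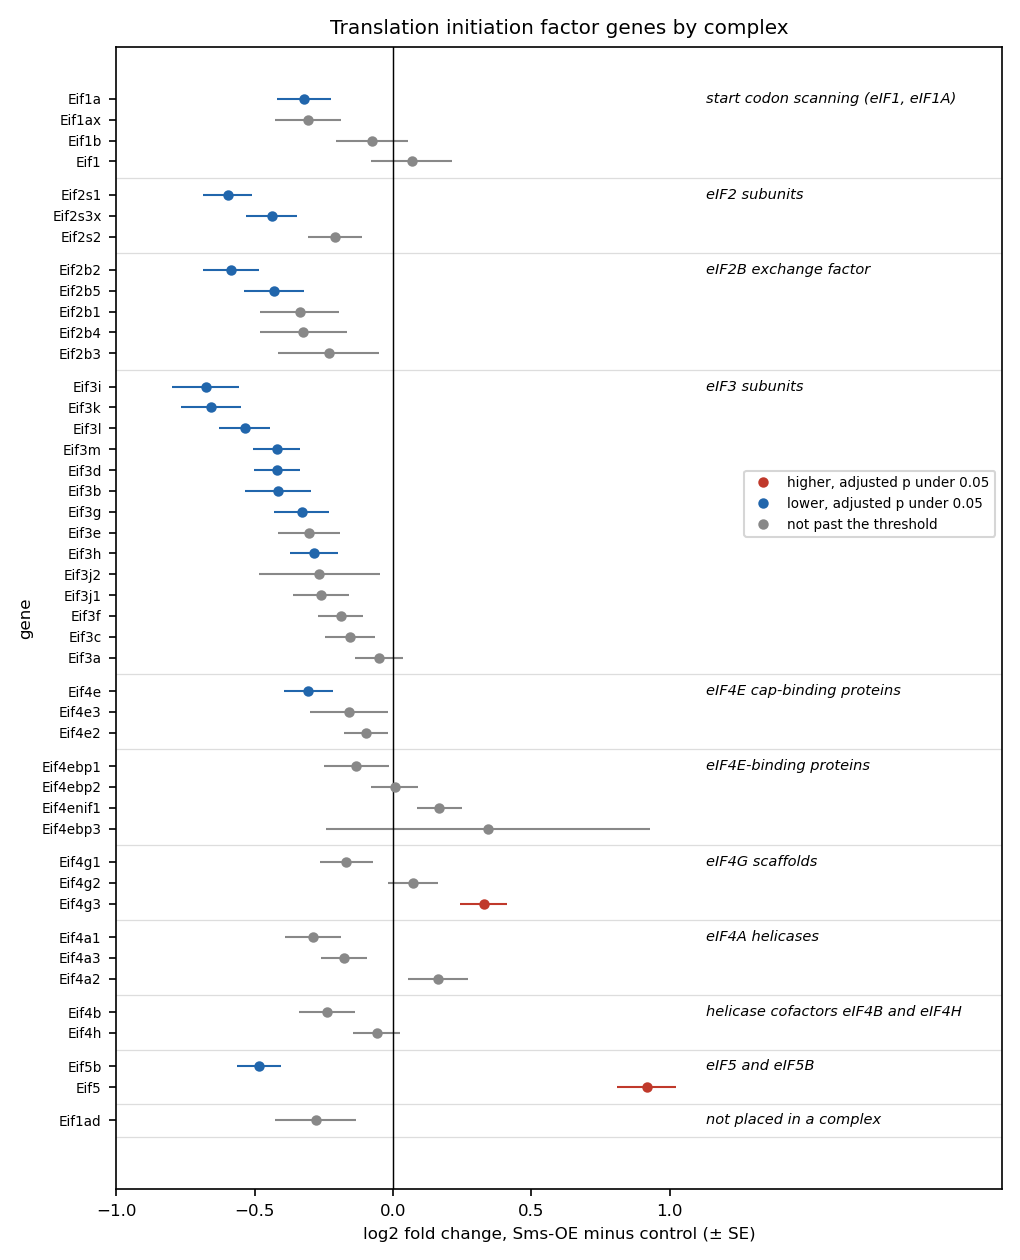
Log2 fold change (horizontal axis, Sms-OE minus control, points with standard error bars) of the 44 initiation factor genes, listed by complex on the vertical axis. Red marks the 2 genes that rose, blue the 15 that fell and grey the 27 that did not pass; all 14 eIF3 points lie below 0 and Eif5 stands alone at 0.92.

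Several measures moved with the groups, and their part in these results was not tested unless a value is given. Library totals were 49833764 to 58154006 counts. Sms itself, in the sequenced cells, was 26.0, 28.3 and 26.2 CPM in control and 32.9, 33.2 and 33.2 CPM in Sms-OE libraries (log2 fold change 0.30 ± 0.09 SE, adjusted p 0.038, which was 0.072 to 0.122 with any 1 library left out). The macrophage marker list was high in every library (summed CPM 7721 to 7890 in control, 7632 to 8987 in Sms-OE), with 2 of its 14 genes higher and 5 lower. Of 14 hepatocyte and hepatoma markers, 9 fell and 0 rose, and their summed CPM was 826 to 1035 in control and 439 to 668 in Sms-OE libraries. Neutrophil markers summed to 5341 to 7906 and 4392 to 6231 CPM with 2 of 10 genes higher, T and NK cell markers to 450 to 693 and 526 to 740 CPM with 1 of 10 higher, and dendritic cell markers to 86.5 to 111 and 64.2 to 73.9 CPM with 3 of 8 lower and 1 higher. Endothelial markers summed to 146 to 166 and 120 to 162 CPM with 3 of 7 lower and 1 higher, stellate cell and fibroblast markers to 77.3 to 96.0 and 109 to 149 CPM with 2 of 8 higher, and B cell markers to 138 to 163 and 113 to 139 CPM with none of 6 past the threshold. Erythroid markers were 43.3 to 189 CPM in control and 217 to 5050 CPM in Sms-OE libraries, where replicates 2 and 3 stood apart with 0.485% and 0.512% of counts in haemoglobin genes. Mitochondrial genes took 4.99% to 7.13% of counts in control and 2.155% to 3.12% in Sms-OE libraries. No marker of these lists was at 0 in every library. The marker counts stand beside 12.5% of all genes that rose and 14.3% that fell.

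The initiation factor counts changed between the fits below, and the part of these measures in the changes was not tested. Fits with fewer libraries make fewer calls by construction. With both haemoglobin-rich libraries left out, which leaves 1 Sms-OE library that is assumed to vary like the controls, Eif5 rose and Eif2s1 and Eif5b fell, while 3.39% of all genes rose and 3.41% fell. With the mean log2 CPM of the hepatocyte markers as a covariate, none of the 44 and no gene of the 18277 passed in edgeR, although 4 members and 1967 genes had an unadjusted p under 0.05. That covariate does not overlap between the groups, so its part cannot be told apart from that of the group. Leaving out control replicate 2 left 9 members lower and 1 higher, against 8.78% and 7.12% of all genes. Leaving out Sms-OE replicate 3 left 10 lower and 1 higher, against 9.22% and 8.19%, and leaving out control replicate 3 left 11 lower and 1 higher, against 9.63% and 7.80%. Of the 17 genes called, 10 passed with any 1 library left out: Eif5 among those that rose, and Eif2s1, Eif2s3x, Eif2b2, Eif3d, Eif3i, Eif3k, Eif3l, Eif3m and Eif5b among those that fell. The share of all called genes that did so was not computed, so this count has no background to stand beside. Scaling by library size alone gave 9 members lower and 2 higher, against 9.78% and 13.8% of all genes (1788 and 2521, where TMM factors gave 2615 and 2293).

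The initiation factors are themselves translated from an AUG that scanning ribosomes must choose, and eIF1 and eIF5 are textbook cases of factors that set how strict that choice is and are controlled by it in turn. The 15 bases around the annotated start codon, from GENCODE M21 on GRCm38, are therefore shown for genes on both sides of the comparison, with the start codon in capitals. In the vertebrate consensus the base 3 before the ATG is A or G and the base just after it is G. The 2 genes that rose come first, then genes that fell, then the eIF1 pair.
Eif5: taagccaaaATGtct
Eif4g3: cctcagacaATGaac
Eif5b: tgacaagcgATGggg
Eif2s1: cacttcagaATGccg
Eif2s3x: ccgagcaagATGgct
Eif3i: accgccaggATGaaa
Eif3k: acagtgatcATGgcg
Eif3b: cgcgggcccATGcag
Eif4e: cgatctaagATGgcg
Eif1: tcgtatcgtATGtcc
Eif1b: tagtgtcgcATGtcc
Both consensus bases were present in 17 of the 40 members compared (42.5%), against 41.5% of 20335 genes, and neither in 3 (7.50%, against 7.38%). The 3 were Eif1, Eif1b and Eif3b. The 40 leave out Eif1a, which fell, and Eif3j2 and Eif4ebp3, whose contexts are not reported here. Eif5 and Eif4g3 each had 1 of the 2 bases. The annotated leader of Eif5 was 626 bases with 5 upstream ATG, and that of Eif4g3 477 bases with 4. At least 1 upstream ATG was present in 13 of 40 members (32.5%) and in 54.0% of all genes. Among the 14 of these 40 members that fell, it was present in 3. These are features of the annotation and no measure of translation.

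The scanning factors eIF1 and eIF1A keep the ribosome open while it moves along the leader. Eif1a fell, Eif1 and Eif1b did not pass, and Eif1ax had values close to those of Eif1a. Eif1a was 59.8, 64.0 and 68.4 CPM in control libraries and 56.7, 49.99 and 47.0 CPM in Sms-OE libraries. Each Sms-OE library was below each control library (log2 fold change -0.32 ± 0.10 SE, adjusted p 0.036). This call was lost with an adjusted p of up to 0.115 when control replicate 2 or 3 or Sms-OE replicate 2 or 3 was left out. Eif1ax, the X-linked copy of the same factor, was 45.2, 43.6 and 52.0 CPM in control and 37.0, 43.6 and 33.2 CPM in Sms-OE libraries (-0.31 ± 0.12 SE, adjusted p 0.086). The groups overlapped in 1 library only, Sms-OE replicate 2.

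Eif1 was among the most abundant members, at 478, 575 and 659 CPM in control and 526, 708 and 559 CPM in Sms-OE libraries. The groups overlapped throughout (log2 fold change 0.07 ± 0.15 SE, adjusted p 0.779), and the sign changed when control replicate 1 or Sms-OE replicate 2 was left out. With per-library offsets for transcript length and GC content, Eif1 was 0.38 ± 0.13 SE (adjusted p 0.062 in edgeR). Adding a block for replicate number to the offsets gave 0.37 (adjusted p 0.022), past the threshold. A transcript annotated to Emd shares 96.7% identity with Eif1 over 49.8% of its length, and Emd held 20.7% as many counts as Eif1, so the split of reads between them is uncertain. Eif1b, a second eIF1 gene, was 28.2, 34.4 and 33.1 CPM against 29.8, 34.9 and 26.1 CPM and did not pass (adjusted p 0.707). Eif1ad, named for its similarity to eIF1A and not placed in a complex here, was 25.2 ± 2.48 CPM (SD, n = 3) in control and 20.7 ± 3.84 CPM in Sms-OE libraries (adjusted p 0.189), and its exons overlap those of Banf1 on the other strand.

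eIF2 delivers the initiator tRNA, and its α subunit, encoded by Eif2s1, carries the serine that stress kinases phosphorylate. Genes of 2 of its subunits fell, where 14.3% of all genes did, and Eif2s2 did not pass. Eif2s1 (chr12:78861819-78887010, plus strand, GRCm38) was 84.8, 85.5 and 86.1 CPM in control libraries and 58.2, 60.3 and 51.0 CPM in Sms-OE libraries. The control libraries lay within 2 CPM of each other and all 3 Sms-OE libraries lay far below them, and the mean fell by 33.9% (log2 fold change -0.60 ± 0.09 SE, adjusted p 0.0015). Eif2s3x, the X-linked gene of the γ subunit that binds GTP and the tRNA, was 143, 141 and 140.3 CPM in control and 115, 93.6 and 104 CPM in Sms-OE libraries (-0.44 ± 0.09 SE, adjusted p 0.0070). Again no library of one group reached the other. Eif2s2, the gene of the β subunit that eIF5 contacts, was 91.4, 91.6 and 98.0 CPM in control and 89.8, 81.9 and 71.2 CPM in Sms-OE libraries. Its groups did not overlap, but its difference did not pass (-0.21 ± 0.10 SE, adjusted p 0.142), and a retrocopy, Gm9892, held 10.9% as many counts.

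Within each library the eIF2 genes moved by unequal amounts. The ratio of Eif2s2 to Eif2s1 was 1.08, 1.07 and 1.14 in control and 1.54, 1.36 and 1.40 in Sms-OE libraries, without overlap. Per kilobase of transcript, the level of Eif2s1 was 25.1 CPM in control, below those of Eif2s2 (36.9) and Eif2s3x (38.8), and in Sms-OE libraries these levels were 16.6, 31.8 and 28.6. Eif2s3y, the Y-linked copy of the γ subunit gene, did not meet the count rule, with 0 counts in each control library and 0, 16 and 28 counts in Sms-OE libraries.

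eIF2B is the exchange factor that reloads eIF2 with GTP, with α, β and δ subunits that sense phosphorylated eIF2 and γ and ε subunits that catalyse the exchange. All 5 of its genes had fitted values below 0, and 2 fell, where 14.3% of all genes did. Eif2b2, the β subunit gene (chr12:85219481-85226628, plus strand), was 44.5, 42.0 and 48.8 CPM in control and 31.7, 30.6 and 27.8 CPM in Sms-OE libraries (log2 fold change -0.59 ± 0.10 SE, adjusted p 0.0027). Eif2b5, the gene of the catalytic ε subunit, was 34.7, 40.1 and 38.4 CPM against 29.2, 24.9 and 29.9 CPM (-0.43 ± 0.11 SE, adjusted p 0.017). Both sets of values were lower in every Sms-OE library than in any control library. Eif2b5 no longer passed once control replicate 2 (adjusted p 0.075) or control replicate 3 (0.052) was removed. Eif2b1, Eif2b4 and Eif2b3 did not pass, with log2 fold changes of -0.34, -0.32 and -0.23 and adjusted p of 0.11, 0.160 and 0.387. Eif2b3 was the least abundant of the 5 per kilobase, at 2.27 CPM in control and 1.93 CPM in Sms-OE libraries, and Eif2b2 the most abundant, at 28.1 and 18.7 CPM. Exons of Eif2b4 overlap those of Snx17 on the other strand.

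The summed CPM of the 5 eIF2B genes was 135 to 139 in control and 91.3 to 110.0 in Sms-OE libraries, and that of the 3 tested eIF2 genes was 318 to 324 and 226 to 263. The ranges did not overlap in either complex.

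eIF3 is the largest initiation complex and the scaffold on which the others assemble at the small subunit. All 14 of its genes had fitted log2 fold changes below 0, with a median of -0.32. Of them 8 fell, against 14.3% of all genes. The groups did not overlap in 11, all lower, against 23.3% of all genes that were lower without overlap. The largest falls in this fit were in Eif3i, Eif3k and Eif3l. With per-library offsets for transcript length and GC content, the lowest values were those of Eif3b (-0.40), Eif3j1 (-0.37) and Eif3i (-0.36). With both haemoglobin-rich libraries left out, none of the 8 passed, and 13 of the 14 remained below 0.

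Eif3i (chr4:129591960-129600648, minus strand), a WD-repeat subunit that binds the b and g subunits, was 90.7, 89.2 and 106 CPM in control and 70.3, 53.1 and 55.1 CPM in Sms-OE libraries. The mean fell by 37.4% (log2 fold change -0.68 ± 0.12 SE, adjusted p 0.0033). Eif3k (chr7:28971372-28981864, minus strand), the smallest core subunit, was 129, 130.3 and 162 CPM in control and 92.9, 93.0 and 81.2 CPM in Sms-OE libraries (-0.66 ± 0.11 SE, adjusted p 0.0022). The highest control library was replicate 3 for both genes, and the groups stayed apart without it. Eif3l, which pairs with the k subunit, was 114, 105 and 112 CPM against 84.6, 71.7 and 72.1 CPM (-0.54 ± 0.09 SE, adjusted p 0.0027). Eif3d, the subunit that can itself bind the cap of some mRNAs, was 124, 124 and 123 CPM in control and 95.9, 96.5 and 84.9 CPM in Sms-OE libraries (-0.42 ± 0.08 SE, adjusted p 0.0053). Its control libraries lay close together and well above each Sms-OE library.

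The remaining calls of the complex were Eif3m (-0.42 ± 0.09 SE, adjusted p 0.0061), Eif3b (-0.41 ± 0.12 SE, adjusted p 0.028), Eif3g (-0.33 ± 0.10 SE, adjusted p 0.034) and Eif3h (-0.29 ± 0.09 SE, adjusted p 0.034). Eif3b encodes a scaffold subunit that carries the i and g subunits, and Eif3g encodes an RNA-binding subunit. The calls of Eif3b, Eif3g and Eif3h were lost in some fits with 1 library left out, with adjusted p of up to 0.098, 0.122 and 0.102. Eif3b was lost without control replicate 1 or 2 or Sms-OE replicate 2 or 3, Eif3g without control replicate 2 or 3 or Sms-OE replicate 1 or 3, and Eif3h without any library other than Sms-OE replicate 2.

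Eif3a, the gene of the largest subunit, was 292, 274 and 259 CPM in control and 276, 256 and 265 CPM in Sms-OE libraries. These ranges overlapped and the fitted difference was the smallest of the complex (-0.05 ± 0.09 SE, adjusted p 0.713). Eif3c, which forms the core together with Eif3a, was 179 ± 10.9 CPM (SD, n = 3) in control and 161 ± 11.9 CPM in Sms-OE libraries (adjusted p 0.242). Eif3e, Eif3f, Eif3j1 and Eif3j2 did not pass either, with log2 fold changes of -0.31, -0.19, -0.26 and -0.27 and adjusted p of 0.068, 0.119, 0.085 and 0.410. The ratio of Eif3a to Eif3k was 2.26, 2.11 and 1.603 in control libraries and 2.97, 2.75 and 3.26 in Sms-OE libraries. The 2 ranges did not overlap before any correction for transcript length. The pair joins the smallest fitted fall of the complex with a gene among its largest, so this gap adds nothing to those fits. With per-library offsets for transcript length and GC content, the log2 fold change was -0.15 ± 0.08 SE for Eif3a and -0.33 ± 0.08 SE for Eif3k. Summed over the complex, CPM was 1840 to 1942 in control and 1456 to 1617 in Sms-OE libraries.

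The j subunit is loosely bound and has 2 nearly identical mouse genes. Eif3j1 was 61.2, 57.9 and 71.3 CPM in control and 50.9, 57.0 and 51.2 CPM in Sms-OE libraries, without overlap. Eif3j2 was 15.0, 17.3 and 13.0 CPM against 16.9, 11.9 and 8.79 CPM, with overlap. The Eif3j2 transcript matches that of Eif3j1 at 99.4% identity over its whole length, so the split between them is uncertain, and Spg11 overlaps Eif3j1 on the other strand with 64.0% as many counts. Per kilobase, levels within eIF3 ran in control from 6.34 CPM (Eif3j2) and 11.7 CPM (Eif3j1) to 155 CPM (Eif3k) and 177 CPM (Eif3h), although most core subunits are present once per complex.

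eIF4E binds the cap and is held to be the limiting part of eIF4F. Eif4e fell, and its relatives Eif4e2 and Eif4e3 did not pass. Eif4e was 71.9, 71.4 and 67.5 CPM in control and 61.7, 55.8 and 52.8 CPM in Sms-OE libraries (log2 fold change -0.31 ± 0.09 SE, adjusted p 0.029). Every Sms-OE library was below every control library, but the call was lost without control replicate 1 or 2 or Sms-OE replicate 2 or 3, with an adjusted p of up to 0.091. Eif4e2, a cap-binding protein that represses translation in part, was 70.5, 68.8 and 74.3 CPM against 66.3, 67.4 and 65.9 CPM (-0.10 ± 0.08 SE, adjusted p 0.399). Eif4e3 was 28.7, 35.5 and 41.8 CPM against 29.6, 30.01 and 35.2 CPM, with wide overlap (-0.16 ± 0.14 SE, adjusted p 0.443). Eif4e1b, known from oocytes, had 0 counts in all 6 libraries, which by a floor of 3 counts allows up to 0.0516 to 0.0602 CPM, counting error only.

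The eIF4E-binding proteins compete with eIF4G for eIF4E when mTOR is inactive. None of their 4 genes passed. Eif4ebp1 was 47.6, 48.8 and 58.9 CPM in control and 49.6, 51.0 and 41.1 CPM in Sms-OE libraries (log2 fold change -0.13 ± 0.12 SE, adjusted p 0.449). Eif4ebp2, the most abundant of them, was 149.9, 169 and 149 CPM against 157, 154 and 159 CPM (0.0059 ± 0.09 SE, adjusted p 0.969). Eif4ebp3 stayed near 1 CPM, at 1.102, 0.824 and 0.167 CPM against 0.683, 1.06 and 0.927 CPM, and shares most of its transcript with a read-through gene that had far more counts, so its value is uncertain. Eif4enif1, whose product carries eIF4E into the nucleus and to P-bodies, was 44.7, 46.7 and 45.2 CPM against 50.4, 51.1 and 51.8 CPM. Its groups did not overlap, yet its difference did not pass (0.17 ± 0.08 SE, adjusted p 0.161).

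The ratio of Eif4ebp2 to Eif4e was 2.09, 2.37 and 2.205 in control and 2.55, 2.75 and 3.01 in Sms-OE libraries, without overlap. The ratio of Eif4ebp1 to Eif4e was 0.662, 0.684 and 0.874 against 0.804, 0.914 and 0.777, and overlapped. A ratio shows unequal change within a library and does not say which gene changed.

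The eIF4G scaffolds tie the cap, the helicase and eIF3 together, and the 3 genes diverged. Eif4g3 (chr4:137993022-138208508, plus strand) was 142, 140.5 and 129 CPM in control and 170.1, 164 and 182 CPM in Sms-OE libraries. Its Sms-OE libraries were all above its control libraries, with a mean 25.5% higher (log2 fold change 0.33 ± 0.09 SE, adjusted p 0.018). It no longer passed once control replicate 2 (adjusted p 0.071), control replicate 3 (0.086) or Sms-OE replicate 3 (0.066) was removed. Eif4g1, the main scaffold in most cells, was 254, 249 and 217 CPM in control and 219, 200.3 and 221 CPM in Sms-OE libraries (-0.17 ± 0.09 SE, adjusted p 0.221). Eif4g2, a relative that lacks the eIF4E-binding site, was 591, 640.2 and 628 CPM against 658, 667 and 631 CPM (0.07 ± 0.09 SE, adjusted p 0.598). Both overlapped between the groups. The ratio of Eif4g3 to Eif4g1 was 0.558, 0.565 and 0.593 in control and 0.776, 0.817 and 0.823 in Sms-OE libraries, narrow ranges that lay well apart.

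eIF4A unwinds the leader, and none of its 3 genes passed. Eif4a1 was 629.6, 614 and 641 CPM in control and 523, 564 and 456 CPM in Sms-OE libraries, without overlap (log2 fold change -0.29 ± 0.10 SE, adjusted p 0.061). It passed in DESeq2 (adjusted p 0.035) and in limma-voom with quality weights (0.030). With per-library offsets for transcript length and GC content in edgeR it was -0.03 ± 0.09 SE (adjusted p 0.824). A processed pseudogene, Eif4a-ps4, matches it at 99.9% identity and held 17.1% as many counts, so part of its signal is uncertain. Eif4a2 was 299.6, 333 and 341 CPM in control and 322, 409 and 359 CPM in Sms-OE libraries, with overlap (0.16 ± 0.11 SE, adjusted p 0.311), and its value was -0.02 without both haemoglobin-rich libraries. The ratio of Eif4a2 to Eif4a1 was 0.476, 0.542 and 0.532 in control and 0.616, 0.724 and 0.788 in Sms-OE libraries, without overlap. Eif4a3, which works in the exon junction complex rather than in initiation, was 81.6 ± 3.94 CPM (SD, n = 3) in control and 72.1 ± 3.33 CPM in Sms-OE libraries (adjusted p 0.141). The helicase cofactors did not pass: Eif4b was 287, 259 and 258 CPM against 253, 208 and 220.2 CPM (adjusted p 0.109), and Eif4h was 254, 240.4 and 229.9 CPM against 222, 237 and 236 CPM (adjusted p 0.660).

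**Figure D2:**
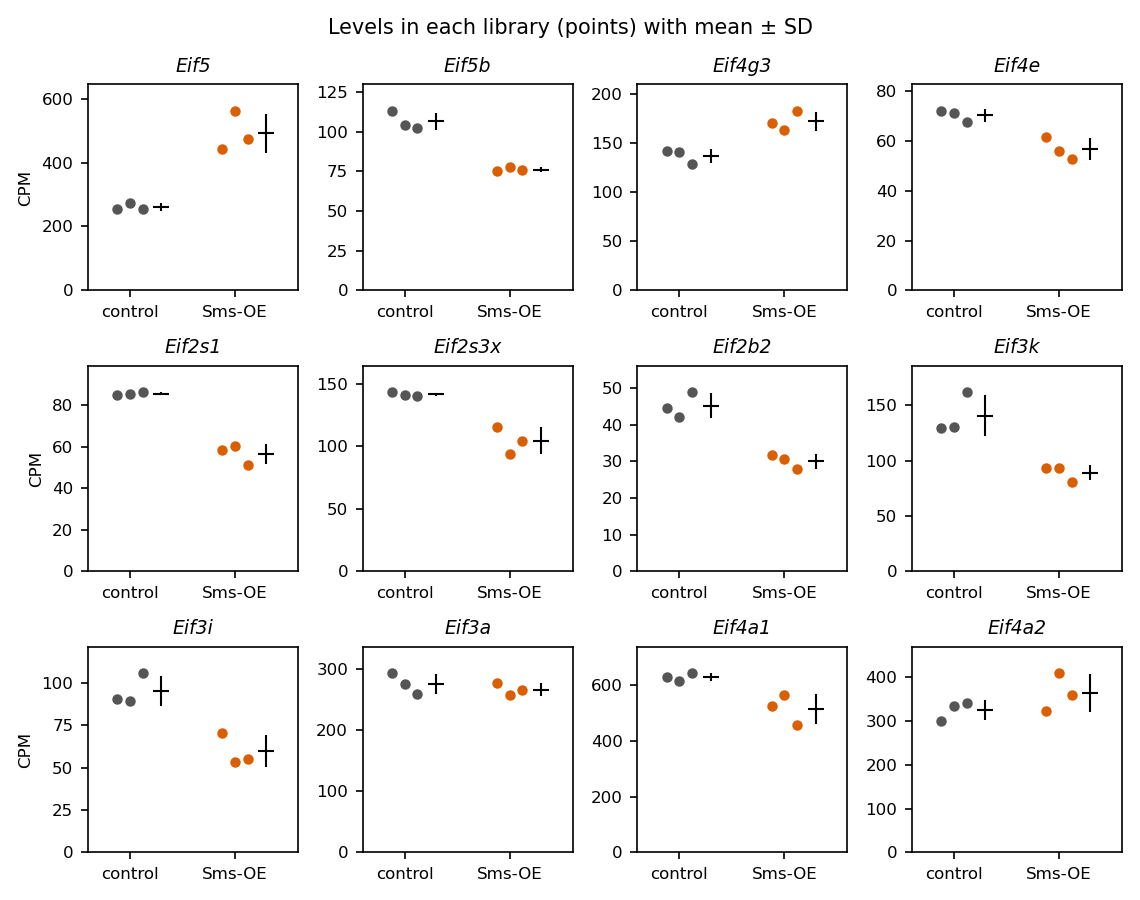
CPM in each library (vertical axes, each from 0) of 12 initiation factor genes, with control libraries in grey, Sms-OE libraries in orange, and bars for the mean and SD of 3. Eif5 lies at 253 to 274 CPM in control and 443 to 560.2 CPM in Sms-OE libraries, while Eif5b, Eif2s1 and Eif2s3x lie lower in Sms-OE libraries and Eif3a and Eif4a2 overlap.

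The last steps of initiation showed the widest split. Eif5 encodes the GTPase activator of eIF2 that commits the ribosome to a start codon, and Eif5b the GTPase that joins the large subunit. Eif5 (chr12:111538016-111546752, plus strand) was 253, 274 and 255 CPM in control libraries and 443, 560.2 and 474 CPM in Sms-OE libraries. Each Sms-OE library exceeded each control library by more than the whole control range, and the mean was 1.89-fold higher (log2 fold change 0.92 ± 0.11 SE, adjusted p 5.1e-04). The value lay between 0.81 and 0.98 with any 1 library left out, with an adjusted p of at most 0.0056. Eif5b (chr1:37998010-38055579, plus strand) was 113, 104 and 102 CPM in control and 75.01, 77.6 and 75.7 CPM in Sms-OE libraries. Its Sms-OE libraries lay within 3 CPM of each other and the mean fell by 28.5% (-0.48 ± 0.08 SE, adjusted p 0.0023). Rev1 overlaps Eif5b on the other strand over 1643 exon bases and held 13.0% as many counts.

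The ratio of Eif5 to Eif5b was 2.25, 2.63 and 2.49 in control and 5.90, 7.22 and 6.26 in Sms-OE libraries. The ratio of Eif5 to Eif1, whose products compete for eIF2 and have opposite effects on the strictness of start codon choice, was 0.530, 0.477 and 0.387 in control and 0.842, 0.791 and 0.848 in Sms-OE libraries. Neither ratio overlapped between the groups. For Eif5 over Eif5b this follows from the values above, as Eif5 was higher and Eif5b lower in every Sms-OE library than in any control library. In the fit with the hepatocyte marker covariate, Eif5 kept its size and lost its call (1.08 ± 0.31 SE, adjusted p 0.296).

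**Figure D3:**
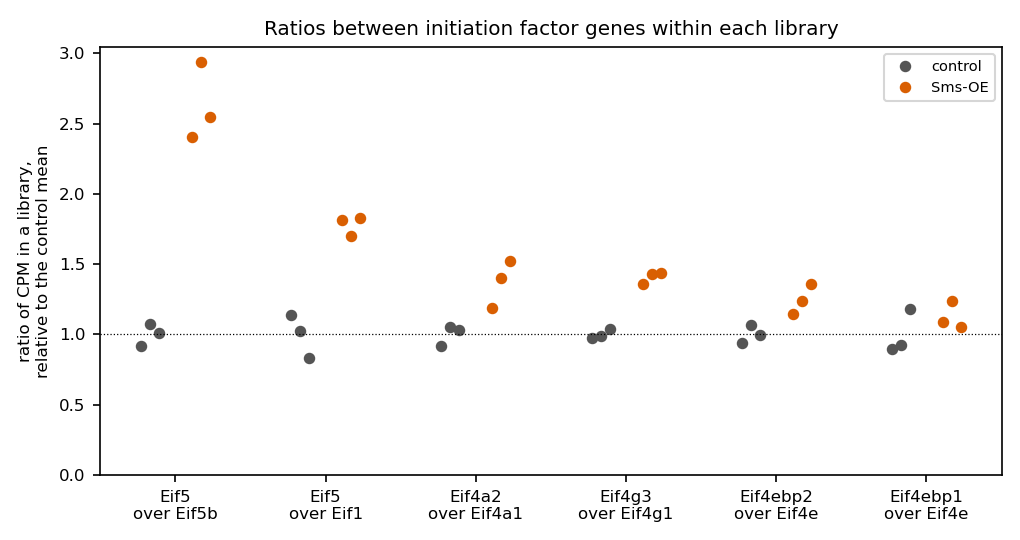
Ratio of CPM of named gene pairs within each library (vertical axis, divided by the control mean of that ratio), with control libraries in grey and Sms-OE libraries in orange. Eif5 over Eif5b reaches 2.63-fold the control mean on average, Eif4a2 over Eif4a1 1.37-fold and Eif4g3 over Eif4g1 1.41-fold, and of the 6 pairs drawn only Eif4ebp1 over Eif4e overlaps.

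Fold changes moved with transcript length across all genes, and the initiation factors were placed along the same axis. Genes were split into 4 bins of equal size by transcript length. In the shortest bin (up to 1450 bases) 19.3% fell and 4.73% rose, and in the longest (from 4128 bases) 6.62% fell and 26.6% rose. Of the initiation factors, 5 of 8 fell in the shortest bin, 4 of 15 in the second, 4 of 12 in the third and 2 of 9 in the longest. Their median log2 fold changes in these bins were -0.31, -0.29, -0.19 and -0.17, against -0.16, -0.10, 0.0049 and 0.20 for all genes. Across the 44 genes, log2 fold change and log length had a Pearson r of 0.246 and a Spearman rho of 0.289, and across 18253 genes 0.101 and 0.191. The points share the same 6 libraries and genes are not independent replicates.

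**Figure D4:**
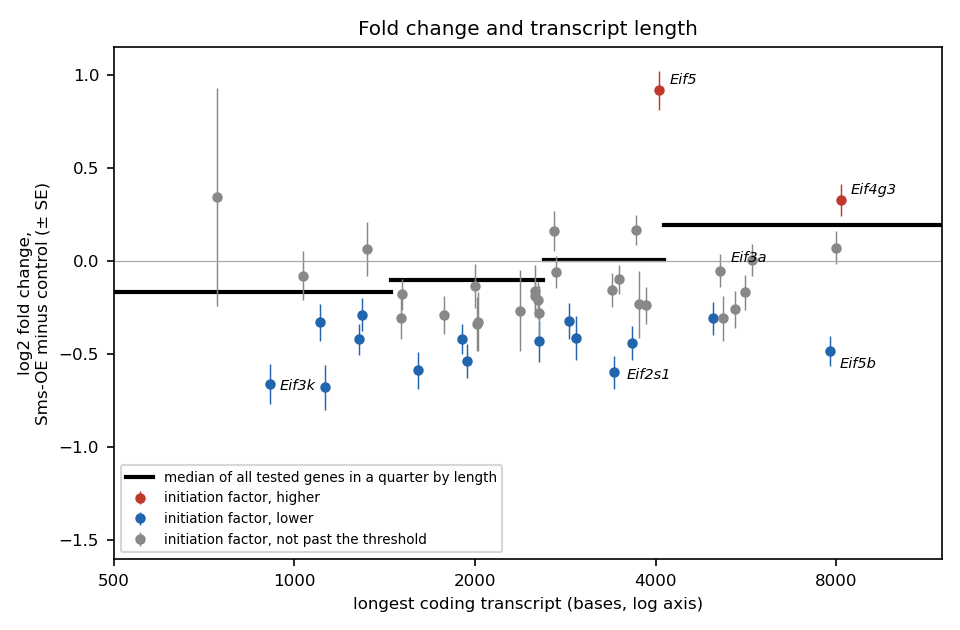
Log2 fold change with standard error (vertical axis, Sms-OE minus control) against the length of the longest coding transcript in bases (horizontal log axis) for the 44 initiation factor genes, with black lines for the median of all genes in each length bin. Eif5b, with 7797 bases, lies far below the line of its bin (0.20), and Eif4g3, with 8134 bases, lies near it.

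With per-library offsets for transcript length and GC content, 12 initiation factor genes were lower and 2 higher, against 9.49% and 11.3% of all genes, and the median was -0.12 against 0.07. Eif5 kept its value of 0.92 ± 0.11 SE (adjusted p 7.0e-04). Eif5b moved further down, to -0.73 ± 0.07 SE (adjusted p 3.8e-04). Eif4g3 lost its call at 0.05 ± 0.07 SE (adjusted p 0.652), and Eif4a2 gained one at 0.33 ± 0.10 SE (adjusted p 0.048). Eif4g1 (-0.36, adjusted p 0.010) and Eif3j1 (-0.37, adjusted p 0.034) were lower with the offsets only, and Eif3g, Eif3h, Eif3m, Eif1a and Eif2b5 lost their calls. Eif3i, Eif3k, Eif3l, Eif3d and Eif3b stayed lower, so 6 of 14 eIF3 genes were called. Eif2s1 (-0.52), Eif2s3x (-0.41), Eif2b2 (-0.39) and Eif4e (-0.37) also stayed lower.

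**Figure D5:**
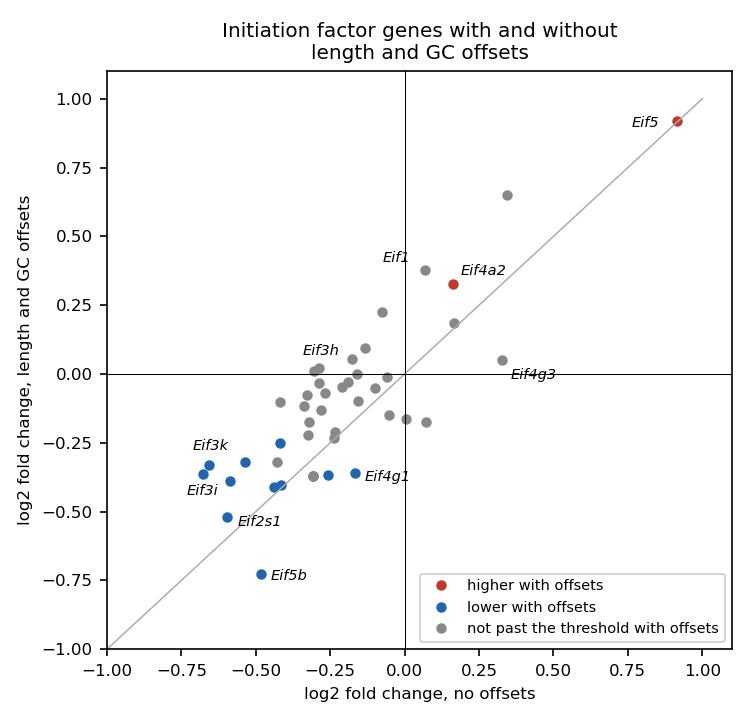
Log2 fold change (Sms-OE minus control) of the 44 initiation factor genes without (horizontal axis) and with (vertical axis) offsets for length and GC content, with the line of equal values; colours give the call with the offsets. Eif5 lies on the line, Eif5b and Eif4g1 below it, and Eif4g3 near 0 on the vertical axis.

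The promoters were compared for letters that factors of the stress and growth programmes are known to bind. The RefSeq table on GRCm38.p6 gave the 250 bases before and 50 after the start of 34 of the 44 genes, and both strands were searched. The E-box CACGTG, which Myc and related factors bind, was present in 8 of 34 (23.5%), against 8.09% of the 27025 genes in the table. Those 27025 include genes that were not tested here, and the sets were not matched for expression or base composition. The 8 were Eif1b, Eif3a, Eif3f, Eif3k, Eif4a1, Eif4e, Eif4g1 and Eif4h. Of the 12 members in the table that fell, 2 held the E-box (Eif3k and Eif4e), as did 6 of the 20 that did not pass. The cyclic AMP response element TGACGTCA was in 0 of 34, against 2.03%, and its half-site TGACG in 16 of 34 (47.1%), against 23.0%. The element TGATGNAA, bound by Atf4 with C/EBP factors, was in 1 of 34 (Eif2s3x), against 4.51%. The half-site was in 4 of the 12 that fell and 12 of the 20 that did not pass. Neither Eif5 nor Eif4g3 held any of these elements in the window, which says only that the letters are not in it. Windows of 60 bases are shown for the called genes Eif3k (chr7:28981900-28981959, minus strand) and Eif4e (chr3:138527177-138527236, plus strand), and for Eif4g1 (chr16:20672646-20672705, plus strand), with the E-box in capitals.
Eif3k: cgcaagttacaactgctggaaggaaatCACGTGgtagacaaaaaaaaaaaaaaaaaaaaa
Eif4e: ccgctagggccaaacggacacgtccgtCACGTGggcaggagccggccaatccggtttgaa
Eif4g1: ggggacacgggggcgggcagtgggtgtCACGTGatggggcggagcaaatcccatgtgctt
A start of the kind found in mRNAs that mTOR controls, a C at the first base followed by at least 4 pyrimidines, was annotated in 2 of 34 (5.88%), against 3.01% of genes. They were Eif2s3x, which fell, and Eif3f, which did not pass. The 55 bases around each start are shown on GRCm38.p6 (chrX:94212632-94212686, minus strand, and chr7:108934380-108934434, plus strand), with the pyrimidine run in capitals.
Eif2s3x: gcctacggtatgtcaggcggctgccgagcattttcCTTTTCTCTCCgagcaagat
Eif3f: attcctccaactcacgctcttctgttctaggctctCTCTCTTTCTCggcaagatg
A match is a description of the sequence and no evidence of binding.

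Genes that act on eIF2 and in the stress response downstream of it were measured in the same fit. Of 6 genes of eIF2 kinases and phosphatase subunits, 3 rose and 0 fell, against 12.5% and 14.3% of all genes. Ppp1r15b, the constitutive subunit that directs phosphatase to eIF2, was 129.5, 130.4 and 125 CPM in control and 171, 167 and 182 CPM in Sms-OE libraries (log2 fold change 0.44 ± 0.08 SE, adjusted p 0.0037). Ppp1r15a, the stress-induced subunit, was 678, 648 and 598 CPM against 743, 858 and 897 CPM (0.38 ± 0.11 SE, adjusted p 0.026). Eif2ak3, the kinase of endoplasmic reticulum stress, was 34.4, 33.9 and 34.2 CPM against 49.2, 39.4 and 41.6 CPM (0.34 ± 0.10 SE, adjusted p 0.035). In all 3 genes the Sms-OE libraries were above the control libraries. With 1 library left out, the adjusted p in edgeR reached 0.107 for Ppp1r15a and 0.119 for Eif2ak3, past the threshold. Ppp1r15b kept its call (at most 0.027). Eif2ak3 no longer passed once offsets for transcript length and GC were used (0.28, adjusted p 0.061). Eif2ak1, Eif2ak2 and Eif2ak4, the other kinases, did not pass.

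Of 11 targets of the integrated stress response, 4 rose and 1 fell, against 12.5% and 14.3% of all genes. Slc7a11, the cystine transporter, was 275, 316 and 299 CPM in control and 795, 1163 and 772 CPM in Sms-OE libraries (log2 fold change 1.62 ± 0.16 SE, adjusted p 2.3e-04). Psat1, of serine synthesis, was 64.3, 52.8 and 46.6 CPM against 32.4, 24.3 and 25.9 CPM (-0.99 ± 0.14 SE, adjusted p 0.0014). Chac1, which degrades glutathione, was 10.6, 8.29 and 7.85 CPM against 13.7, 17.9 and 17.6 CPM (0.88 ± 0.17 SE, adjusted p 0.0045). Sesn2 and Trib3 also rose. The call of Trib3 could be lost with 1 library left out (adjusted p up to 0.099 in edgeR). Atf4, whose mRNA is favoured when eIF2 is phosphorylated, was 284, 320 and 337 CPM against 347, 457 and 366 CPM; its groups did not overlap but it did not pass (0.31 ± 0.12 SE, adjusted p 0.081). Ddit3, Asns, Atf5, Ddit4 and Phgdh did not pass. The same offsets for length and GC gave calls to Atf4 (0.52, adjusted p 0.012) and Ddit3 (0.53, adjusted p 0.012), both higher. The list therefore moved in both directions.

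Of 19 regulators and partners of eIF4F, 3 rose and 1 fell, against 12.5% and 14.3% of all genes. Mknk2, a kinase that phosphorylates eIF4E on eIF4G, was 215.3, 225 and 225 CPM in control and 358, 398 and 375 CPM in Sms-OE libraries (log2 fold change 0.76 ± 0.09 SE, adjusted p 4.4e-04). Ddx3x, a helicase that helps with structured leaders, was 596, 657 and 684 CPM against 778, 958 and 850.3 CPM (0.42 ± 0.11 SE, adjusted p 0.019). Mknk1, the other eIF4E kinase, was 109, 116 and 109 CPM against 123, 143 and 140 CPM (0.28 ± 0.09 SE, adjusted p 0.037). Dhx29, a scanning helicase, fell (-0.38 ± 0.13 SE, adjusted p 0.047). Leaving out 1 library could raise the adjusted p in edgeR to 0.079 for Ddx3x, 0.128 for Mknk1 and 0.159 for Dhx29. Mknk2 kept its call (at most 0.0062). Mtor, Rptor, Rheb, Tsc1, Tsc2 and Pabpc1 did not pass. In the fit with these offsets Mtor (-0.36, adjusted p 0.020), Larp1 (-0.30, adjusted p 0.027) and Rps6kb2 (-0.52, adjusted p 0.015) passed as lower.

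Of 8 other factors of initiation or recycling, 3 fell and 0 rose, against 14.3% and 12.5% of all genes. They were Abce1, which splits ribosomes after termination (log2 fold change -0.58 ± 0.11 SE, adjusted p 0.0036), Mcts1 (-0.59 ± 0.12 SE, adjusted p 0.0061) and Eif5a (-0.35 ± 0.10 SE, adjusted p 0.024). Under the offsets Mcts1 (-0.17, adjusted p 0.306) and Eif5a (-0.13, adjusted p 0.338) lost their calls. Of 10 elongation and termination factors, 6 fell and 0 rose, against the same shares of all genes. Eef1g, Eef1e1 and Eef1d had the smallest p (-0.62, -0.88 and -0.54, adjusted p 0.0018, 0.0024 and 0.0028), and Eef1a1 lost its call with the offsets (-0.17, adjusted p 0.249). Of the 21 genes called in these 5 lists, some calls depended on 1 library: without control replicate 2, 5 were higher and 7 lower, against 10 and 11 with all libraries. Eif5a, Eef1a1 and Gspt1, all called lower, had an adjusted p in edgeR of up to 0.078, 0.069 and 0.091 with 1 library left out.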

How the data were processed

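The authors deposited a table of estimated counts per gene, whole numbers and not normalized; how they were made is not given in the sources used here. The submitters' processing notes list HISAT2 2.2.1 and StringTie 2.1.6 beside cutadapt 1.9, FastQC 0.11.9 and DESeq2, with no role, build, annotation or strand setting. Per the labels' protocols, libraries were made with oligo(dT) beads and dUTP. Symbols (55141 of 55401 rows) and gene coordinates are from GENCODE M21 on GRCm38, matched by Ensembl identifier. Groups were compared in R 4.3.3 with the quasi-likelihood test of edgeR 4.0.16 after filterByExpr and TMM scaling, using its robust option, and adjusted by Benjamini-Hochberg over 18277 genes at a threshold of 0.05. Alternatives used DESeq2 1.42.0, limma 3.58.1, other scalings and filters, a replicate block, offsets, a covariate and each library left out. Copies were sought with BLAST 2.17.0 (95% identity over 30% of a transcript). The steps were tested on simulated counts. Log2 changes of 0.5, 1 and 2 were put into 61, 67 and 63 of 17713 genes. Of these 16.4%, 59.7% and 69.8% were called, and 9.62% of calls were unchanged genes. Among those above 1 CPM the shares called were 18.9%, 74.1% and 85.7%. Far fewer genes changed there than were called in the data, so the shares need not hold for the real test. A gene that did not pass may still differ. Values are given in every library for up to 4 called genes per complex by smallest p (the 2 most abundant where none passed) and for paralogues, and for up to 3 per related list. The members and lists were chosen with earlier results of these data known. Removal of both haemoglobin-rich libraries was added after seeing the data.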

Additional observations from a re-analysis of the deposited data

How the results depend on the processing

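Totals of 49833764 to 58154006 counts make 1 CPM about 50 counts. The labels' replicate numbers did not pair the libraries (same-number correlations of deviations 0.065, 0.020 and -0.0075). With the replicate block 2 members were higher and 13 lower, of all genes 2117 and 2415, and Sms was 0.302 with an adjusted p of 0.0596.

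The count of members higher and lower stayed within 1.5 times of 2 and 15 with DESeq2 size factors, upper-quartile factors, no low-count filter, a CPM filter, the DESeq2 Wald test, limma-voom, no robust step, the block, and without mitochondrial and haemoglobin rows. With library size alone 9 members were lower. With length and GC offsets 1735 of all genes were lower, 1479 of them among the 2615. With the hepatocyte marker covariate all counts were 0 (members, related lists and all genes, higher and lower), and Sms was 0.279. At an adjusted p under 0.01, 1 member was higher and 9 lower, of all genes 1077 and 1219, of the related lists 5 and 7, and Sms (0.301) did not pass. Without both haemoglobin-rich libraries, 1 member was higher and 2 lower, of all genes 690 and 694, of the related lists 3 and 3, and Sms was 0.288. With each library left out in turn, 1 to 2 members were higher and 9 to 17 lower, of all genes 1366 to 2015 and 1684 to 2473, of the related lists 5 to 9 and 7 to 11, and Sms was 0.272 to 0.330. Sms was 0.284 with no low-count filter. The cause of these moves was not tested; fewer libraries or a stricter threshold make fewer calls by construction.

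Of 923 member values under alternatives, 777 kept their direction and side of the threshold, 82 lost a call, 17 gained one and 47 changed sign. With the hepatocyte covariate the sign changed for Eif1a (0.107), Eif1ax (0.388), Eif1b (0.596), Eif2s2 (0.286), Eif3e (0.338), Eif3f (0.0072), Eif3h (0.021), Eif3j1 (0.130), Eif3j2 (0.479), Eif4a1 (0.161), Eif4e2 (0.023), Eif4ebp1 (0.637), Eif4ebp2 (-0.111), Eif4ebp3 (-1.585) and Eif4g3 (-0.015). With length and GC offsets it changed for Eif1b (0.224), Eif3e (0.012), Eif3h (0.022), Eif4a3 (0.053), Eif4e3 (0.0014), Eif4ebp1 (0.096), Eif4ebp2 (-0.164) and Eif4g2 (-0.175). With the replicate block and these offsets the values were Eif1b 0.223, Eif3e 0.0064, Eif3h 0.022, Eif4a3 0.052, Eif4e3 0.010, Eif4ebp1 0.097, Eif4ebp2 -0.162 and Eif4g2 -0.176. Library size alone gave Eif3a 0.010 and Eif4h 8.9e-04, limma-voom gave Eif4ebp2 -0.024, and no low-count filter gave Eif4ebp2 -0.012. Without both haemoglobin-rich libraries the values were Eif1 -0.124, Eif3j2 0.154, Eif4a2 -0.020 and Eif4ebp3 -0.046. With 1 library left out, signs changed for Eif4ebp2, Eif1, Eif1b and Eif4ebp3, whose values ranged from -0.039 to 0.057, -0.082 to 0.171, -0.202 to 0.015 and -0.122 to 0.827. None of these 4 passed in the main test.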

Other observations

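Counts were also recorded for 10 annotated pseudogenes of these factors, and 1 of them, Eif4a-ps4, was abundant, with 6290, 5914 and 5504 counts in control and 4852, 4635 and 3987 counts in Sms-OE libraries before scaling. It lies at chr1:60703932-60705149 on GRCm38 and matches Eif4a1 at 99.9% identity. The Eif3e copy Eif3s6-ps2 held 102, 165 and 120 counts against 47, 77 and 68. Of the other 8, none exceeded 51 counts in a library.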
